A study of Rattus norvegicus with 12 samples.

Results

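Endothelin-3 (ET-3) was compared with no peptide in cultures of rat retinal ganglion cells (RGCs), which carry the output of the retina along the optic nerve. The comparison took the 3 arrays titled ET-3-treated and the 3 titled untreated, 6 of the 12 arrays of the series, and set each ET-3 array against the untreated array of the same biological replicate number. The cells had been panned from retinas of Sprague-Dawley pups on postnatal days 4 to 6 by means of a Thy-1.1 antibody, whose antigen lies on the RGC surface. All cultures were grown for 7 days in serum-free medium with forskolin and the neurotrophic factors BDNF and CNTF, and then passed a night without these factors. The treated cultures next received 100 nM ET-3 for 24 h. The control cultures are untreated by their titles and vehicle-treated by their descriptions, and are called untreated here. The remaining 6 arrays, 3 with ET-1 and 3 with ET-2 at the same dose and time, shared the estimate of the spread and served to compare the peptides. The labels do not say whether a replicate number stands for a litter, a panning or a day, so the p-values below measure the spread between these samples.

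The endothelins are short vasoactive peptides that are cut from larger precursors by endothelin-converting enzymes and act on a pair of G protein-coupled receptors, endothelin A and endothelin B. ET-1 and ET-2 bind both receptors with similar affinity, whereas ET-3 prefers endothelin B. In the retina and optic nerve head, endothelins constrict vessels and act on glia, and endothelin B has been tied to the loss of RGCs in models of glaucoma. Both receptors couple to Gq and calcium release, and in mesenchymal and glial cells they drive contraction, growth and matrix production.

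The cultures carried RGC transcripts at high levels, along with transcripts of other cells. Sncg, Stmn2, Gap43 and Slc17a6, all abundant in RGCs, read between 11820 and 31590 on the 6 arrays, where the unit is the MAS5 signal, a brightness on a linear scale, and the median probe set of an array read between 136 and 174.5. Replicate 1 stood apart from the others. The summed signal of 15 fibroblast and meningeal markers there was 68990 untreated and 63390 with ET-3, against 9362 to 13210 in replicates 2 and 3. The fibroblast sum was lower with ET-3 in replicates 1 and 2 and nearly equal in replicate 3. The sums for astrocytes and Müller glia and for pericytes and smooth muscle were higher on the ET-3 array of every replicate. Each sum weighs its brightest members most. A large part of these rises lay in Vim and Gja1 for glia and in Tagln for pericytes and smooth muscle. The endothelial markers Pecam1 (4.53 to 38.7), Cldn5 (3.93 to 40.2) and Vwf (16.6 to 45.9) were dim on all 6 arrays. So was Olig2, a marker of oligodendrocytes (0.91 to 45.2). Other markers of these lists were brighter. Of 15 endothelial markers 5 were bright enough to be tested, and of 11 oligodendrocyte and Schwann markers 5. The oligodendrocyte and Schwann sum was 8125, 2987 and 3080 untreated and 8863, 2963 and 3220 with ET-3 in replicates 1, 2 and 3. In such mixed cultures, a change in the number of cells of one type and a change in RNA per cell cannot be told apart.

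**Figure D1:**
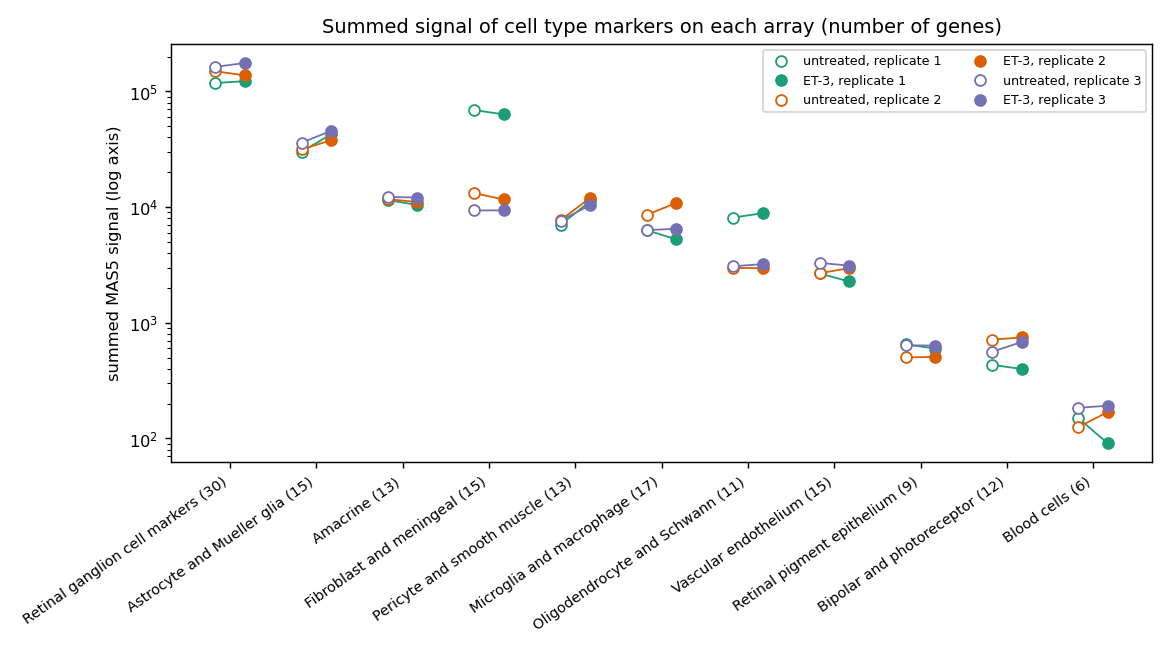
Summed MAS5 signal of the markers of 11 cell types (log axis, with the number of genes in each sum) on the 3 untreated arrays (open points) and the 3 ET-3 arrays (filled points), joined by replicate number. RGC markers are the brightest sum, fibroblast markers are highest in replicate 1 in both groups, and the pericyte and glial sums are higher with ET-3 in all 3 replicates.

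After ET-3, 239 of the 9425 genes tested were higher and 44 were lower than in untreated cultures, which is 2.54% and 0.467% of them (limma on log2 signal with the replicate number as a block, Benjamini-Hochberg adjusted p below 0.05). A gene was tested if its mean log2 signal lay in the upper part of all probe sets, above a signal of 147.5. Increases were larger than decreases. Of the higher genes 55 changed at least 2-fold, with a median log2 change of 0.71 over all 239, while of the lower genes 1 changed at least 2-fold and the median was -0.34. The median over all genes tested was -0.01. All 283 called genes moved in the same direction in all 3 pairs. Calling genes in a fit blocked on these pairs favours such agreement. Only 78 of the 239 higher genes and 10 of the 44 lower genes had ET-3 arrays that did not overlap the untreated arrays. Over all genes tested, called or not, the arrays of the groups did not overlap in 3.11% (ET-3 above) and 2.99% (ET-3 below).

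These counts depend on the pairing and on single libraries. By probe set, 331 were higher and 79 lower of 15521 (2.13% and 0.509%, or 2.64% in all). Without the replicate block limma called 0 (297 with an unadjusted p under 0.05, where 776 would be expected by chance). Centring each array on its median left the total near the same, at 446, but split it into 228 higher and 218 lower. The count of 410 probe sets became 90 without replicate 1 and 43 without replicate 2. Leaving out single arrays gave 245 (untreated replicate 1), 685 (untreated replicate 3), 86 (ET-3 replicate 1) and 97 (ET-3 replicate 2). Changes were largest in replicate 1: the called higher genes had a median log2 change of 0.89 there, 0.72 in replicate 2 and 0.43 in replicate 3.

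**Figure D2:**
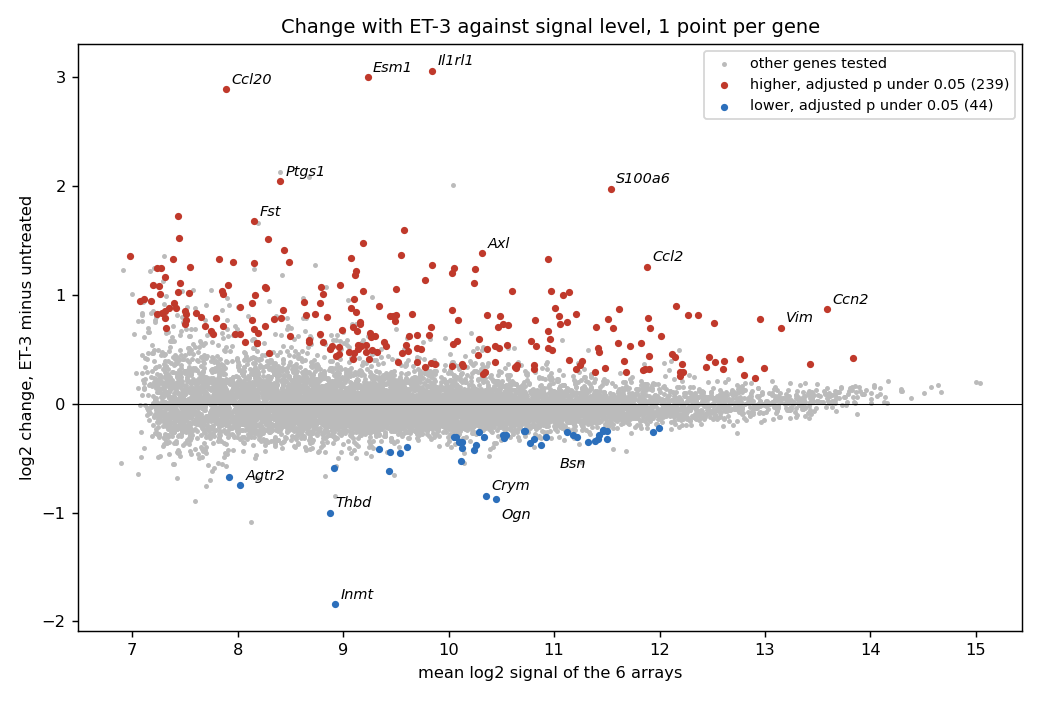
Log2 change with ET-3 against the mean log2 signal of the 6 arrays, 1 point for each of the 9425 genes tested. The 239 higher genes (red) reach a log2 change of 3.06 and spread over the whole range of signal, and of the 44 lower genes (blue) 36 changed by less than 1.5-fold, with Inmt farthest down at -1.84.

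The largest increase was in Il1rl1, the receptor of the alarmin interleukin-33. Its signal was 656, 246 and 199 on the untreated arrays of replicates 1, 2 and 3, and 12150, 1117 and 1380 on the ET-3 arrays. Every ET-3 array lay above every untreated array, and the log2 change was 3.06 ± 0.31 (8.35-fold; n = 3 pairs; adjusted p = 0.000461). Here and below, ± gives the standard error from the limma fit, in which all arrays of the series shared the estimate of the spread. It is therefore not a measure of the spread between the 3 pairs of a gene. For Il1rl1 the log2 changes of the pairs were 4.21, 2.18 and 2.79 in replicates 1, 2 and 3. Esm1, a secreted proteoglycan best known from activated endothelium, read 381, 102 and 247 untreated and 5937, 826 and 1007 with ET-3, again without overlap (3.0 ± 0.24, adjusted p = 0.000257). S100a6, a small calcium-binding protein, was already bright at 2430, 845 and 1636 and reached 12420, 4165 and 3967, a log2 change of 1.98 ± 0.18 (adjusted p = 0.000363). Axl, a receptor tyrosine kinase that binds Gas6, went from 1216, 579 and 699.8 to 3801, 1696 and 1353 (1.38 ± 0.13, adjusted p = 0.000363), and its groups did not overlap. These 4 genes showed the rise in each replicate, as did every gene called higher, and in all 4 the rise was largest in replicate 1.

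In many of the other genes with large changes, too, replicate 1 moved most. Fst, the secreted antagonist of activin, read 288, 119 and 117 untreated and 1967, 209 and 321 with ET-3 (1.68 ± 0.29, adjusted p = 0.0096). The ET-3 array of replicate 1 was far above the rest, and the ET-3 array of replicate 2 lay within the untreated range. The changes of the remaining genes are given on the log2 scale. Hrct1 (1.73), Rasl11b (1.41), the cytokine-like Metrnl (1.34), the heparan sulfate sulfatase Sulf1 (1.29), the heparan sulfate proteoglycan Sdc4 (1.27), Fxyd5, a regulator of the sodium pump (1.30), Jph2, a protein of membrane junctions in muscle (1.31), Lmcd1 (1.33) and C1h19orf33 (1.33) also rose. Enpep, the aminopeptidase that cleaves angiotensin II, rose by 1.36 from low signals (158, 79.8 and 39.2 untreated).

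**Figure D3:**
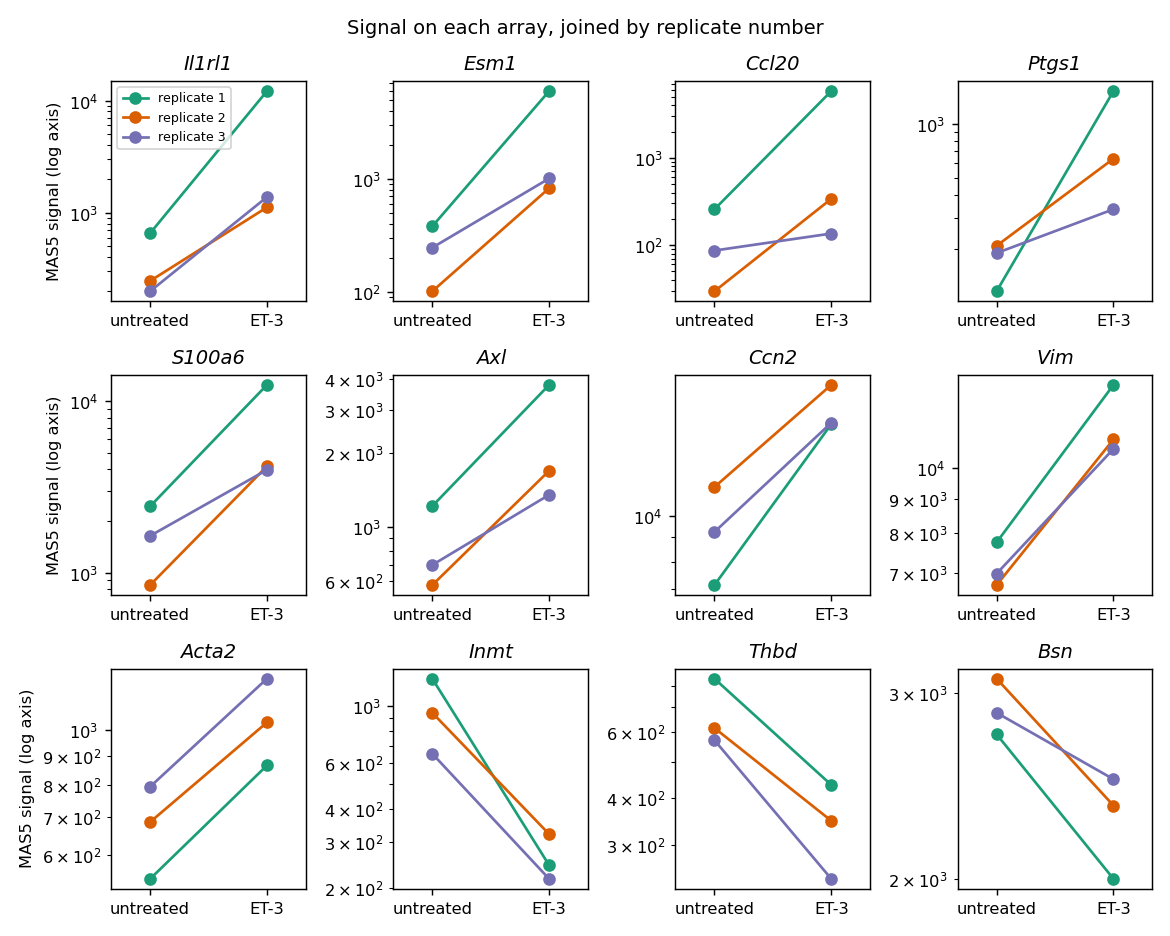
MAS5 signal (log axis, scaled for each gene) of 12 genes on the untreated and ET-3 arrays, joined by replicate number. Il1rl1, Esm1, S100a6, Axl, Ccn2, Vim, Acta2, Ptgs1, Inmt, Thbd and Bsn have groups that do not overlap, whereas for Ccl20 the ET-3 array of replicate 3 (136) lies below the untreated array of replicate 1 (257).

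Both cyclooxygenase genes, which code for the enzymes that begin prostaglandin synthesis, were among the higher genes. Ptgs1 read 116, 209 and 190.1 untreated and 1520, 638 and 334 with ET-3, so the ET-3 arrays lay above the untreated ones although the pairs differed widely (2.04 ± 0.42, adjusted p = 0.0243). Ptgs2, the inducible form, read 878, 287 and 333 untreated and 3223, 1265 and 572 with ET-3 (1.60 ± 0.23, adjusted p = 0.00362). Its groups overlapped because the untreated array of replicate 1 was high. They were the 2 called of 8 tested genes of prostaglandin synthesis and reception, against 2.54% higher among all genes. The count was also 2 without replicate 1, 0 without replicate 2 and 3 without replicate 3. Ptges, the inducible prostaglandin E synthase, was at 1.66 and did not pass (adjusted p = 0.0691).

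Chemokine genes were among those raised most. Of 21 chemokine and cytokine genes tested, 8 rose and none fell, against 2.54% higher among all genes, and the median log2 change was 0.66. The neutrophil attractants Cxcl1, Cxcl2, Cxcl3 and Cxcl6, the monocyte attractants Ccl2 and Ccl7, the lymphocyte attractant Ccl20 and the membrane-bound Cxcl16 were the members called. Ccl2 read 4299, 1533 and 2216 untreated and 13440, 5016 and 2969 with ET-3 (1.26 ± 0.20, adjusted p = 0.00636). Ccl20 read 257, 29.6 and 86.6 untreated and 5823, 339 and 136 with ET-3 (2.89 ± 0.62, adjusted p = 0.0291). Both rose in every pair, by much more in replicates 1 and 2 than in replicate 3.

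The count of called chemokines was 1 without replicate 1, 0 without replicate 2 and 8 without replicate 3, and it was 3 when arrays were centred on their medians. Il6, at 184, 106 and 220 untreated and 3388, 317 and 331 with ET-3, did not pass (2.13 ± 0.56, adjusted p = 0.0656). Cxcl1, Cxcl2 and Cxcl3 are similar in sequence, so a probe set may pick up more than 1 of them. The summed signal of 17 microglia and macrophage markers, whose cells also make chemokines, was 6306, 8593 and 6329 untreated and 5266, 10880 and 6499 with ET-3. It did not move one way over the replicates, and 0 of its 11 tested members passed.

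Cxcl1 and Cxcl6 are shown with the 250 bases before their start because both bear a match to a kappa B motif, the binding sequence of NF-kB, searched on both strands as GGGA and TTCC with any pair of bases between them. Sequences are from RefSeq on build GRCr8, 5′ to 3′ on the gene's strand. Cxcl1 is on the minus strand at chr14:17479322-17479571 and Cxcl6 on the minus strand at chr14:17596418-17596667. Capitals mark the matches, 2 in each promoter, which lie on opposite strands and overlap.
Cxcl1: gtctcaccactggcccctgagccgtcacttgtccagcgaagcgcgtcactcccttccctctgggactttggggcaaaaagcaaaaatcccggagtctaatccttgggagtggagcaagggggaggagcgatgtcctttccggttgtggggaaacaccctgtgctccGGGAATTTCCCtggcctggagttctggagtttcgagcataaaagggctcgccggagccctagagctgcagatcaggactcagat
Cxcl6: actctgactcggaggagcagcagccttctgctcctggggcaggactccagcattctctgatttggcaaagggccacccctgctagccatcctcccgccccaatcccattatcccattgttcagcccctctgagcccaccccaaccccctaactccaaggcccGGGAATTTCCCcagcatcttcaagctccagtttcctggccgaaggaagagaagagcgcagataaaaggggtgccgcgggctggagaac
The motif lay in 1.07% of all RefSeq promoters of this length, in 1.33% of those of the genes tested and in 3 of the 6 called chemokine genes that had a promoter in the table (Ccl7, Cxcl1 and Cxcl6). It was chosen after the changes had been seen, and a match is a description of the letters only.

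Fewer genes were called among NF-kB subunits, inhibitors and targets. Of 18 tested members 4 rose and none fell, against 2.54% higher among all genes: the subunit gene Nfkb2 (0.85), the target Tnfaip2 (0.84), the stress gene Gadd45b (0.42) and the adhesion molecule Icam1, which read 806, 468 and 392.3 untreated and 1685, 879.5 and 529.8 with ET-3 (0.80 ± 0.11, adjusted p = 0.00364). The median was 0.30. None of the 4 calls remained without replicate 1 or without replicate 2. Il1r1, the interleukin-1 receptor, rose by 0.70 alongside Il1rl1. They were the 2 called of 7 tested genes of that receptor family, against the same 2.54% (1 without replicate 1 and 1 without replicate 2). Among 12 tested interferon response genes 0 passed.

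The list with the most calls held contractile and cytoskeletal genes, many of which are targets of serum response factor. Of 27 tested, 17 rose and none fell, against 2.54% higher among all genes, with a median of 0.43. Acta2, smooth muscle actin, read 544, 686 and 793 untreated and 866, 1033 and 1236 with ET-3, without overlap (0.63 ± 0.08, adjusted p = 0.00155). Tagln, the actin-binding transgelin, read 2708, 4637 and 5003 untreated and 6439, 7842 and 6797 with ET-3, also without overlap (0.82 ± 0.11, adjusted p = 0.00301). Csrp1 (0.67), calponin Cnn1 (0.64), filamin Flna (0.73), alpha-actinin Actn1 (0.70), vinculin Vcl (0.51), the myosin light chain Myl9 (0.75) and the myosin heavy chain Myh9 (0.58) rose too. Tpm1, tropomyosin, rose by 0.43 on its brightest probe set. Its 5 other tested probe sets ran from -0.25 to 0.63 and 2 of them passed. Actg2 (0.73) is nearly identical to Acta2 over much of its length, and their probe sets may share signal.

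Markers of pericytes and smooth muscle moved for the most part with this group. The sum over 13 of them was 7057, 7719 and 7657 untreated and 11190, 12010 and 10380 with ET-3. Of these sums Tagln alone, which is also in the contractile list, gave 2708, 4637 and 5003 untreated and 6439, 7842 and 6797 with ET-3. Of 9 tested markers 7 had a positive change, and the lowest change was -0.32. Of the same 9, 5 were called higher, against 2.54% of all genes: Pdgfrb, Acta2, Tagln, Cnn1 and Mcam. That count was 2 without replicate 1, 1 without replicate 2 and 4 without replicate 3. Of the defining markers, Rgs5 lay between 19.7 and 56.9 on the 6 arrays, Des between 80.5 and 136.7, and Kcnj8 between 13.6 and 55.5. The contractile list shares 4 tested genes with these markers, and without them 14 of 23 rose with a median of 0.41. Their part in the result was not tested. The 17 contractile calls became 8 without replicate 1, 3 without replicate 2 and 16 without replicate 3.

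A few single called genes, of which Cav1 belongs to the S100 and membrane repair list and the others to none, were picked after their values were seen. Cav1, the coat protein of caveolae, the small pits of the plasma membrane, read 815, 559 and 723 untreated and 2339, 1724 and 986 with ET-3, without overlap (1.20 ± 0.19, adjusted p = 0.00636). Its partners Cavin3 (0.54) and Ehd2 (0.88) rose. At focal adhesions, Lims1 (0.53), Lims2 (0.94), Bcar1 (0.57) and Pdlim1 (0.60) rose, as did Piezo1, a mechanically gated channel (0.71).

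Calcium-binding S100 proteins, annexins, galectins and membrane repair genes gave 9 higher and 0 lower of 28 tested, against 2.54% higher among all genes, with a median of 0.34. S100a4 read 694, 881 and 814 untreated and 2174, 1994 and 1502 with ET-3 (1.24 ± 0.16, adjusted p = 0.00223). Myof, a membrane repair protein of the ferlin family, read 401, 323 and 376 untreated and 863, 1010 and 709.5 with ET-3 (1.22 ± 0.13, adjusted p = 0.000692). In both genes the groups did not overlap and the 3 untreated arrays were close to each other. S100a11 (0.74), the annexins Anxa1 (0.78) and Anxa3 (0.53) and galectin-1, Lgals1 (0.44), rose by less. The count was 4 without replicate 1, 3 without replicate 2 and 11 without replicate 3.

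**Figure D4:**
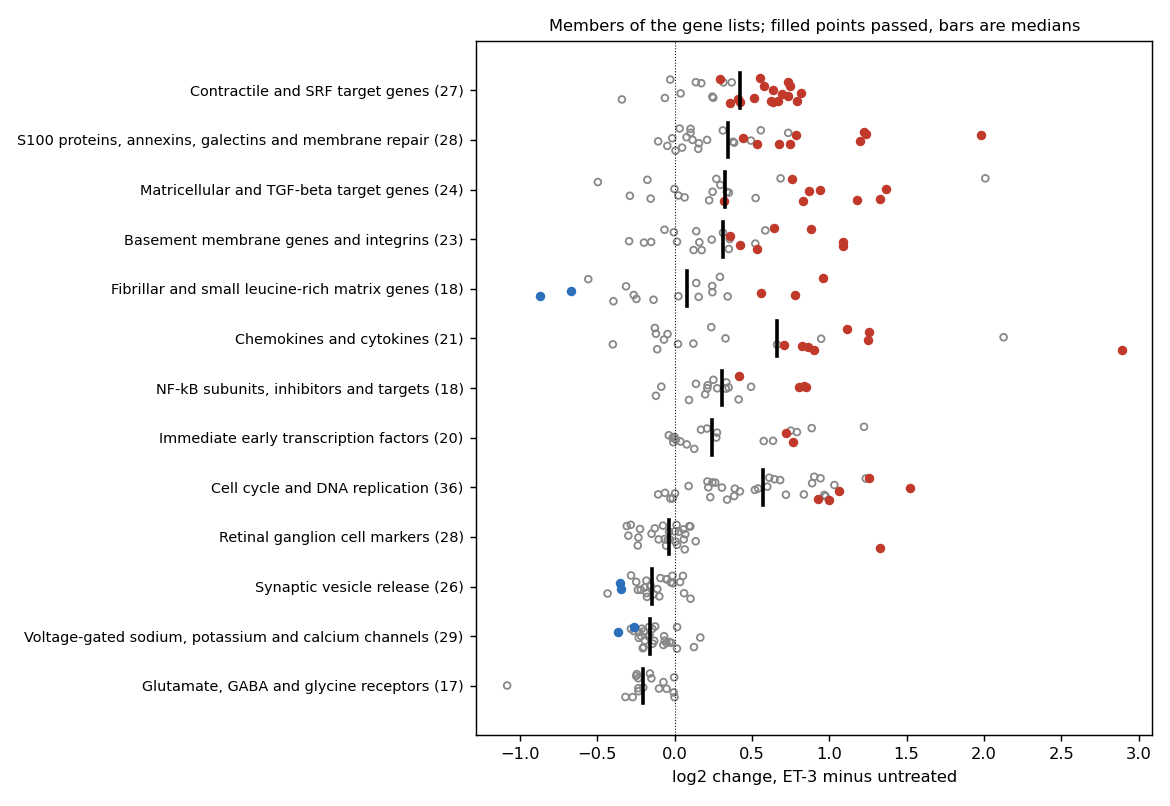
Log2 change with ET-3 of each tested member of 13 gene lists, with the number tested after each name. Filled points passed (red higher, blue lower), open points did not, and bars mark the median of a list: the contractile list has 17 of 27 members filled, while the receptor list at the foot has none filled and its median lies at -0.20.

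Matricellular genes, which code for matrix proteins that signal to cells, gave 8 higher and none lower of 24 tested, against the same 2.54%, with a median of 0.33. Ccn2, connective tissue growth factor, was the brightest of the larger changes. It read 7141, 11500 and 9244 untreated and 15620, 18900 and 15720 with ET-3, without overlap (0.87 ± 0.08, adjusted p = 0.000376). Ccn1 read 608, 369.7 and 455 untreated and 2624, 1067 and 623 with ET-3 (1.36 ± 0.23, adjusted p = 0.00797). Ltbp2, of the latent TGF-beta binding protein family, rose by 1.18, Fbln2 by 0.94, Ccn3 by 0.83 and Fn1, fibronectin, by 0.32. Tnc, tenascin C, was at 2.01 ± 0.62 and did not pass (adjusted p = 0.108). Without replicate 1 the list held 3 calls, and without replicate 2 it held 2.

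Ccn1, Ccn2 and Acta2 are shown as raised genes with matches to GGAATG, the core of the motif bound by TEAD factors. The 250 bases before each start are given 5′ to 3′ on the gene's strand, minus for all 3, at chr2:237225690-237225939, chr1:22624615-22624864 and chr1:241172504-241172753 of GRCr8 (RefSeq). Capitals mark matches on either strand, so that CATTCC in Ccn1 is the reverse complement of the motif.
Ccn1: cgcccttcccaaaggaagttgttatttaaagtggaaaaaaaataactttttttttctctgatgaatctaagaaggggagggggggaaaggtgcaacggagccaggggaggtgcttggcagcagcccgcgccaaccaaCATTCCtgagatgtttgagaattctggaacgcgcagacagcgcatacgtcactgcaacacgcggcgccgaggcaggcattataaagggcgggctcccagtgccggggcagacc
Ccn2: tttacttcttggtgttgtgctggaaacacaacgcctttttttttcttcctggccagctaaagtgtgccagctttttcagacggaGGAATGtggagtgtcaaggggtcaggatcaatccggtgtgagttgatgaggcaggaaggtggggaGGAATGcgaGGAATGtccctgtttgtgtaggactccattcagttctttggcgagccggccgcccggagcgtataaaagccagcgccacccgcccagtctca
Acta2: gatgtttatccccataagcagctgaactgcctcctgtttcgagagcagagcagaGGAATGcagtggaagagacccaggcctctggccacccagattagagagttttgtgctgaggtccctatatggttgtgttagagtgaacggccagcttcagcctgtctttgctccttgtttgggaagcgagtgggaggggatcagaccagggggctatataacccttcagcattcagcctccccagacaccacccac
Ccn2 held 3 matches and the others 1 each. The motif lay in 11.8% of all RefSeq promoters, in 9.54% of those of the genes tested, in 18.6% of those of the higher genes (36 of 194) and in 5.71% of those of the lower genes (2 of 35). It was present in 6 of the 15 called contractile genes that had a promoter there. The AP-1 motif TGANTCA and the CArG box, the site of serum response factor, were searched as well. In those 15 genes the CArG box lay in 2 and AP-1 in 1, against 1.25% and 3.99% of the promoters of genes tested. The TEAD motif, too, was chosen with the changes known, and the shares are descriptions. Tead1 itself, whose product binds this motif, read 1752, 1109 and 871 untreated and 2728, 1674 and 1074 with ET-3 (0.51 ± 0.08, adjusted p = 0.00528).

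Basement membrane and integrin genes followed, with 7 of 23 higher against 2.54% of all genes, none lower and a median of 0.31. Col4a1 and Col4a2, which code for the chains of type IV collagen, rose by 0.88 ± 0.12 and 0.54 ± 0.10. The integrin subunits Itgb1 (0.43), Itgb3 (1.09), Itga1 (0.64) and Itga8 (1.09) and the laminin chain Lamb1 (0.36) were the others. The count was 1 without replicate 1 and 0 without replicate 2. A list of fibrillar, small leucine-rich and other matrix genes was split, with 3 higher (Col12a1, Mgp and Col5a2) and 2 lower (Ogn and Islr) of 18. Another probe set of Col5a2 stood at 0.13 and did not pass. The list held 3 higher and 0 lower calls without replicate 1, and 1 higher and 0 lower without replicate 2. Among all genes 2.54% were called higher and 0.467% lower. Col1a1, a chain of the main fibrillar collagen, read 7660, 1438 and 1004 untreated and 6094, 1508 and 1265 with ET-3 and did not pass (0.02 ± 0.13, adjusted p = 0.945).

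Among TGF-beta, activin and BMP genes 4 of 26 rose, against 2.54% of all genes: Fst, Tgfb3, Bmp2 (0.56) and Fstl1 (0.29). Tgfb3, a TGF-beta ligand, read 369.5, 452 and 242 untreated and 621, 1027 and 607 with ET-3, without overlap (1.09 ± 0.11, adjusted p = 0.000601). Inhba, which codes for the activin A subunit that Fst binds, stood at 1.19 and did not pass (adjusted p = 0.0535). Of 22 metalloproteinase and inhibitor genes 4 rose, against the same 2.54%: Adamts7 (1.03), Mmp9 (0.62), Adam19 (0.35) and Timp1, the inhibitor, at 1.0. Another probe set of Adam19 stood at -0.08 and another of Mmp9 at 0.47, and neither passed. The calls among TGF-beta, activin and BMP genes numbered 2 without replicate 1, 2 without replicate 2 and 2 when arrays were centred on their medians. Those among metalloproteinases and inhibitors numbered 2 without replicate 1, 0 without replicate 2, 1 without replicate 3 and 2 with centred arrays.

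In coagulation, F3, the tissue factor that starts clotting, and Thbd, the anticoagulant receptor thrombomodulin, moved in opposite directions. F3 read 627, 211 and 324 untreated and 2720, 633 and 539 with ET-3 (1.48 ± 0.22, adjusted p = 0.00485), higher in each pair but with overlap. Thbd read 835, 616 and 572 untreated and 434, 348 and 244 with ET-3, and all 3 ET-3 arrays lay below the untreated ones (-1.0 ± 0.12, adjusted p = 0.00155). Plau, the urokinase protease of fibrinolysis, rose by 1.01. The other 10 of 13 tested genes of this list did not pass. Among all genes 2.54% were called higher and 0.467% lower. The list's 2 higher calls became 1 without replicate 1, 0 without replicate 2 and 4 without replicate 3, and its 1 lower call stayed at 1 in each of these.

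Cell cycle genes had a high median but few calls. Of 36 tested, 32 had a positive change and 5 passed, against 2.54% higher among all genes. They were the mitotic kinesin Kif20a (1.52), cyclin A2 Ccna2 (1.25), the proliferation marker Mki67 (1.06), Cdca3 (1.0) and thymidine kinase Tk1 (0.93). Mki67 read 288, 195 and 172 untreated and 1106, 309 and 259 with ET-3. The median of the list was 0.57 over the replicates together, against -0.01 over all genes tested. It was 1.26 in replicate 1, but 0.31 in replicate 2 and 0.13 in replicate 3. The count of calls was 0 without replicate 1, 1 without replicate 2 and 1 without replicate 3. Replicate 1 was also the one with the high fibroblast marker sum, and the part of those cells in the result was not tested.

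Signalling genes gave few calls. Among 23 tested genes of Gq and calcium signalling 0 passed, with a median of -0.04 (-0.24 to 0.33). Of the immediate early genes, which respond within minutes to hours, 2 of 20 were called higher after 24 h: Egr1 (0.72) and Ier3 (0.77). Among all genes 2.54% were called higher. The median of the list was 0.24, against -0.01 over all genes tested, with 16 of 20 changes positive. The count was 0 without replicate 1, 0 without replicate 2, 5 without replicate 3 and 0 when arrays were centred on their medians. Fos read 1737, 1233 and 1227 untreated and 1640, 1361 and 1089 with ET-3, a log2 change of -0.04 that did not pass. Dusp1, a phosphatase that switches off MAP kinases, rose by 0.29 ± 0.06 on its brightest probe set, and another stood at -0.05 and did not pass. Rgs16, which shortens G protein signals, read 184, 143 and 238 untreated and 1090, 484 and 279 with ET-3 (1.52 ± 0.35, adjusted p = 0.0403). Rgs17 was lower by the called probe set (-0.53), while 4 other probe sets of it ranged from -0.41 to -0.08 and none of those passed.

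Components of the endothelin system itself did not pass. Ece1, the main converting enzyme, read 518, 424 and 449 untreated and 607, 459 and 453 with ET-3 (0.12 ± 0.08, adjusted p = 0.493). Ecel1, an enzyme related to it that is found in neurons, stood at -0.17 ± 0.07 (adjusted p = 0.224) and Ece2 at -0.08 ± 0.17. Edn1, the gene of the ET-1 precursor, lay below the level tested, at 59.5, 65.2 and 108 untreated and 112, 118 and 119.8 with ET-3. Edn1 was higher in each pair, and its groups did not overlap. Edn2 was dimmer, with no more than 20.4 on any of the 6 arrays. Ednra, Ednrb and Edn3 were not analysed here.

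Of the lower genes, 36 of 44 changed by less than 1.5-fold, and they were brighter than most, with a median untreated signal of 1644 against 541.6 for the higher genes and 731.1 for all genes tested. Inmt, an N-methyltransferase of indoles, fell most. It read 1269, 939 and 654 untreated and 244, 321 and 216 with ET-3, without overlap (-1.84 ± 0.25, 3.58-fold lower; adjusted p = 0.00301). Crym, a thyroid hormone-binding crystallin, read 1193, 2220 and 2036 untreated and 578, 1206 and 1339 with ET-3 (-0.84 ± 0.11, adjusted p = 0.00223). It fell in each pair, with overlap because replicate 1 was lower in both groups.

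Some genes of fibroblasts and meninges were lower. Ogn, a small leucine-rich proteoglycan, read 6480, 1116 and 934 untreated and 2725, 638 and 633 with ET-3 (-0.87 ± 0.14, adjusted p = 0.00532), and its 3 other tested probe sets passed as well (-1.05 to -0.93). Agtr2, the angiotensin II type 2 receptor, read 5511, 99.8 and 70.3 untreated and 2893, 53.8 and 52.3 with ET-3 (-0.75 ± 0.17, adjusted p = 0.036). It was bright only in replicate 1. Islr fell by 0.67. These 3 were the called members of 12 tested fibroblast markers, against 0.467% of all genes called lower. Dcn, Lum and Pdgfra did not pass, and none of the 3 calls remained without replicate 1 or without replicate 2.

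Among the neuronal lists, vesicle release and channel genes each held 2 lower calls. The bright presynaptic scaffold gene Bsn, bassoon, read 2743, 3097 and 2875 untreated and 2001, 2348 and 2487 with ET-3, without overlap (-0.35 ± 0.06, adjusted p = 0.00961). Slc6a17, a transporter of synaptic vesicles, read 3618, 2575 and 2946 untreated and 2823, 1942 and 2442 with ET-3 (-0.35 ± 0.07, adjusted p = 0.018). They were the 2 called of 26 genes of vesicle release, of which 4 had a positive change and whose median was -0.15. Kcna2, an axonal potassium channel, read 1644, 2072 and 2307 untreated and 1229, 1508 and 1984 with ET-3 (-0.36 ± 0.07, adjusted p = 0.0132), and Scn3b, a sodium channel subunit, fell by 0.26. They were the 2 called of 29 channel genes, with a median of -0.16. Each count compares with 0.467% of all genes called lower. None of these 4 calls remained without replicate 1 or without replicate 2.

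Receptors for glutamate, GABA and glycine gave 0 calls among 17 tested. None of the 17 had a positive change, and the median was -0.20, against -0.01 over all genes tested. Grin1, a subunit of NMDA receptors, read 524, 715 and 600.5 untreated and 358, 455 and 712 with ET-3. The change was downward in replicates 1 and 2 and upward in replicate 3, and it did not pass (-0.32 ± 0.15, adjusted p = 0.305). The medians of the receptor list were -0.23, -0.21 and -0.07 in replicates 1, 2 and 3. For vesicle release they were -0.19, -0.21 and 0.01, and for channels -0.21, -0.21 and -0.03.

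Single neuronal genes outside these lists fell by small amounts, and several of them were named after their values were seen. Ret, the receptor of the GDNF family, read 3841, 3489 and 2532 untreated and 3075, 2635 and 2131 with ET-3 (-0.33 ± 0.07, adjusted p = 0.034), and 2 other probe sets did not pass (-0.24 and -0.09). Ank3, the scaffold of the axon initial segment, fell by 0.31, the protocadherin Pcdh17 by 0.38, the teneurin Tenm4 by 0.41, the neuropeptide gene Crh by 0.41 and the ATP-gated channel P2rx3 by 0.35 on the log2 scale. Another probe set of Ank3 did not pass, nor did another of P2rx3 (-0.22). Other probe sets of Pcdh17 stood at -0.59, which passed, and at -0.14, which did not. Spast and Atl1 code for a microtubule-severing enzyme and an endoplasmic reticulum GTPase that are mutated in hereditary spastic paraplegia. They fell by 0.25 and 0.32, and another probe set of each did not pass. Bcl2l11, the pro-apoptotic BIM, read 1599, 1866 and 992 untreated and 1232, 1556 and 814 with ET-3 (-0.31 ± 0.06, adjusted p = 0.0204). Apoptosis and damage genes gave 2 lower, Bcl2l11 and the growth arrest gene Gadd45a (-0.26), and 1 higher, Gadd45b, of 24 tested. Among all genes 0.467% were called lower and 2.54% higher. None of the calls named in this paragraph remained without replicate 1. Gadd45b kept its call in 0 of the 14 alternatives that kept the block and all 4 groups.

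Of 28 tested RGC markers, 1 passed, Spp1, osteopontin, which also marks a subset of RGCs and many non-neuronal cells. Spp1 read 1530, 554 and 2270 untreated and 6548, 1611 and 2891 with ET-3 (1.33 ± 0.25, adjusted p = 0.0167). The median of the list was -0.03, and among all genes 2.54% were called higher. The count was 0 without replicate 1 and 0 without replicate 2, and with arrays centred on their medians it was 1 higher and 2 lower. Rbpms, an RNA-binding protein used to identify RGCs, read 5281, 8213 and 6327 untreated and 5779, 7067 and 6134 with ET-3 (-0.04 ± 0.06, adjusted p = 0.759). Eomes, a transcription factor of a subset of RGCs, was at -0.30 ± 0.09 and did not pass (adjusted p = 0.0881). Thy1, the panning antigen, read 3069, 5273 and 6732 untreated and 3457, 4013 and 7879 with ET-3. The summed signal of 30 RGC markers was 118400, 149500 and 163300 untreated and 122700, 137700 and 176200 with ET-3, so it was higher in 2 pairs and lower in 1. Among 44 genes of axon growth and neurofilaments 0 passed (median -0.08).

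Of the 8 tested glial markers, 3 rose, against 2.54% of all genes. Vim, the intermediate filament of glia and mesenchymal cells, read 7759, 6711 and 6977 untreated and 13250, 11010 and 10660 with ET-3, without overlap (0.70 ± 0.06, adjusted p = 0.000257). Gja1, connexin 43, read 4556, 617 and 1402 untreated and 10920, 1339 and 2278 with ET-3 (1.03 ± 0.13, adjusted p = 0.00178), and Clu, clusterin, rose by 0.33 ± 0.05. The count of calls was 3 without replicate 1, 2 without replicate 2 and 2 without replicate 3. Of the markers that define astrocytes, Gfap lay at 73 to 240.4, Aqp4 at 103.8 to 123.5 and S100b at 27.2 to 48.3 on the 6 arrays, all under the level tested.

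The peptides were compared directly, at equal dose and time, in the same fit. ET-3, whose sequence departs from that of ET-1 at more residues than ET-2 does, was set against ET-1 and against ET-2, which makes 2 pairs. Limma called 0 of 15521 probe sets in either, with 347 (ET-1) and 583 (ET-2) at an unadjusted p under 0.05 where 776 would be expected by chance. Without the replicate block it also called 0, with 23 and 46 at an unadjusted p under 0.05. The lowest adjusted p of the paired fit was 0.9996 against ET-1 and 0.9989 against ET-2. For a typical probe set the 95% interval of the difference reached 0.24 to either side on the log2 scale.

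The genes that ET-3 changed were thus given with the interval of the difference. For Il1rl1, ET-3 minus ET-1 was -0.39 (-1.05 to 0.28) and ET-3 minus ET-2 was 0.03 (-0.64 to 0.69). For Inmt the values were -0.15 (-0.70 to 0.40) and 0.02 (-0.53 to 0.57). For Ccn2 they were 0.06 (-0.13 to 0.24) and 0.07 (-0.11 to 0.25), which is narrower. Ccl20 was the least certain, at 0.32 (-1.03 to 1.67) against ET-1 and 0.72 (-0.63 to 2.06) against ET-2. Of the 283 called genes, the interval lay within 1 log2 unit of 0 for 279 against ET-1 and 278 against ET-2, and within 0.5 for 224 and 199. The called genes were chosen on the same ET-3 arrays, so these differences lean toward a larger change with ET-3. A failure to pass does not show that the peptides act alike.

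**Figure D5:**
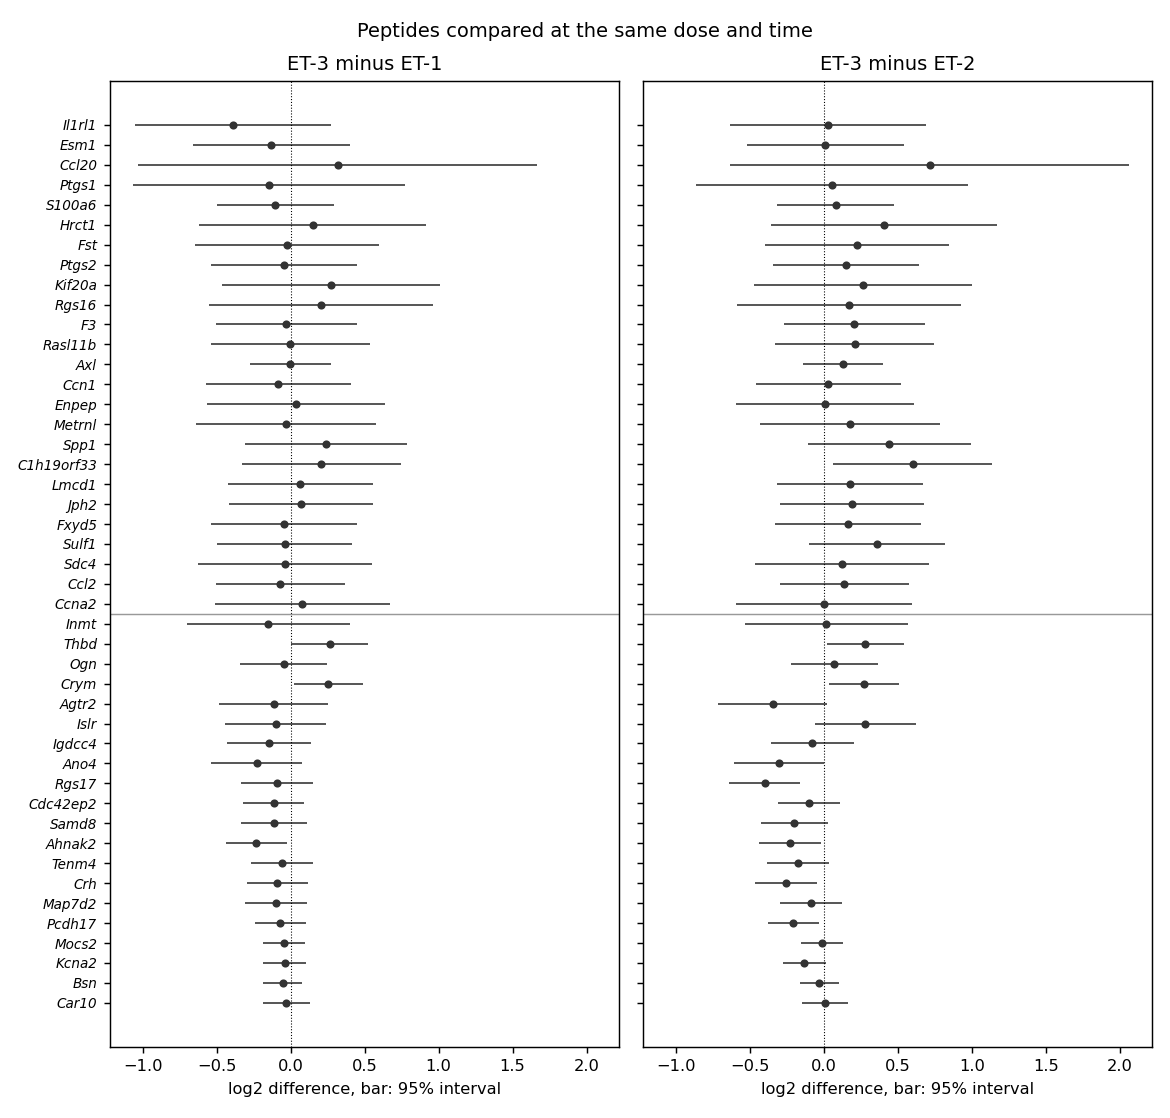
Log2 difference of ET-3 from ET-1 (left) and from ET-2 (right), with 95% intervals. The 25 genes most raised and the 20 most lowered against untreated lie above and below the grey line. They were chosen on the same ET-3 arrays, so the differences lean toward a larger change with ET-3. Each comparison has 3 pairs of arrays. The intervals are from the limma fit, in which all arrays of the series shared the estimate of the spread. Most intervals cover 0, the widest belong to Ccl20, and for C1h19orf33, Thbd, Crym, Rgs17, Ahnak2, Crh and Pcdh17 an interval lies to one side of 0 in at least 1 panel without passing after adjustment.

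Thbd and Crym are described as lower genes whose intervals lay to one side of 0 against both peptides, although neither passed. Thbd read 434, 348 and 244 with ET-3 and 315, 307 and 219.8 with ET-1, higher with ET-3 in every replicate, with a difference of 0.26 (0.00 to 0.52). Crym showed the same order, with 578, 1206 and 1339 after ET-3 and 441, 1105 and 1125 after ET-1 (difference 0.26 (0.02 to 0.49); adjusted p = 0.9996 in limma for both genes). Ahnak2, another of the lower genes, went the other way, with both intervals below 0. It stood at -0.23 (-0.44 to -0.02) against ET-1 and -0.23 (-0.44 to -0.02) against ET-2, and did not pass. Against ET-2, the unadjusted p was smallest in the higher direction for the actin bundler Lcp1 (0.41 (0.19 to 0.63)) and in the lower direction for the extracellular glutathione peroxidase Gpx3 (-0.54 (-0.79 to -0.30)). Gpx3 read 568, 615 and 764 with ET-3 and 685, 1010 and 1190 with ET-2. Against ET-1 they were Wiz (0.69 (0.35 to 1.03)) and Ndufa5, a subunit of respiratory complex I (-0.33 (-0.51 to -0.15)).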

How the data were processed

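The authors' deposited table holds 1 MAS5 signal intensity per probe set and array on a linear scale (Affymetrix Rat Genome 230 2.0, 31042 probe sets). MAS5 is named in the submitters' processing notes, while the sources used here give neither its version nor its settings. The mean after trimming 2% at each end was 496.6 to 498.2 on these arrays, so they appear scaled to a common level. The deposited intensity was taken as log2 without further normalization.

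Of the probe sets 20826 had 1 annotated symbol, and only these were named. Probe sets with a mean log2 signal at or above the median of all (15521, covering 9425 genes) were tested with limma 3.58.1 in R 4.3.3: 4 group means over all 12 arrays, the replicate number as a block, eBayes with an intensity trend, two-sided p-values, Benjamini-Hochberg adjustment over the 15521 probe sets. A gene was represented by its brightest probe set. The number of arrays limits the precision. On simulated data 97% of changes of 1 log2 unit and 61% of changes of 0.5 were recovered, with 10 false calls among 168.

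The replicate numbers were checked before use: deviations from the group means correlated at 0.684 to 0.912 in all 18 same-number pairs of arrays, and at -0.758 to -0.0555 between different numbers. Deviations from a group mean cancel within the group, so correlations between different numbers tend to be negative by construction. The comparison was defined beforehand as paired by replicate number, and the labels give the numbers without saying what they share.

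Named genes were the 25 higher and 20 lower with the largest change, up to 5 called members per gene list and all measured endothelin genes; other members named were picked after their values were seen. Against ET-1 and ET-2 the rule named 6 genes in each direction. The members and the 42 lists were chosen with earlier results of these data known. Alternatives changed the block, arrays, filter, scaling, pseudocount and trend.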

Additional observations from a re-analysis of the deposited data

How the results depend on the processing

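The 410 probe sets called with ET-3 against untreated became 0 with no replicate block (lowest adjusted p 0.609 by limma, 297 with an unadjusted p under 0.05), 56 with only the arrays of the 2 groups compared, 273 with no filter on dim probe sets and 170 without the intensity trend. Leaving out single replicates or arrays gave 43 to 685. The other settings lay within 1.5 times of 410, although the split into higher and lower moved from 331 and 79 to 228 and 218 when arrays were centred on their medians, and to 206 and 93 in the top quartile of signal. The comparisons with ET-1 and with ET-2 gave 0 calls in every alternative run, the replicate block included or not. None of the 283 called genes reversed its direction in any of up to 15 alternatives that kept the block and all 4 groups. Leaving out a whole replicate could not have reversed one, because all 283 moved one way in all 3 pairs. Of the 283, 21 kept their call in all of these alternatives, among them Il1rl1, Esm1, S100a6, Axl, Ccn2, Vim, Acta2 and Thbd. Without replicate 1, 52 of the 283 kept their call. The counts of the gene lists without a replicate or array, after rescaling and with no block, were alternatives chosen after seeing the data. The number of arrays limits what could be called: on simulated data 61% of changes of 0.5 log2 units were recovered.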

Other observations

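Stress genes, not described above, gave some calls. Of 25 tested NRF2 target and redox genes 4 rose and none fell, against 2.54% higher among all genes: Akr1b8, an aldo-keto reductase (1.04), Nqo1, a quinone reductase (0.70), Gstp1, a glutathione transferase (0.36), and Gpx1, a glutathione peroxidase (0.32), all as log2 changes in limma. Nqo1 read 2149, 1718 and 7474 on the untreated arrays of replicates 1, 2 and 3 and 4724, 2915 and 8569 with ET-3. The count was 0 without replicate 1, 1 without replicate 2 and 3 without replicate 3, and with arrays centred on their medians it was 2 higher and 1 lower. The small heat shock genes Cryab (1.14 ± 0.14) and Hspb1 (0.92 ± 0.17) rose, and Cryab read 243.7, 559 and 1537 untreated against 581, 1605 and 2380 with ET-3. Among 30 tested genes of ER stress and secretory chaperones 3 rose, Pdia6 (0.30), Creld2 (0.52) and Calr (0.33), and none of these calls held when arrays were centred on their medians, without replicate 1 or without replicate 2. Cholesterol synthesis gave 1 call of 25 (Msmo1, 0.53) and hypoxia and glycolysis 1 of 24 (P4ha2, 0.51), counts near that background of 2.54%.

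Il33, the ligand of the receptor encoded by Il1rl1, lay below the level tested and was looked at after the rise of Il1rl1 had been seen. It read 138, 31.7 and 62.5 untreated and 555, 83.9 and 81.9 with ET-3, higher in each pair with overlapping groups. Fgfr2, a fibroblast growth factor receptor, rose by 0.78 ± 0.14, from 333, 157.5 and 290.5 to 726, 276.5 and 384. Adm, the vasodilator peptide adrenomedullin, rose by 0.82 ± 0.17, from 2243, 627 and 697 to 5031, 889 and 1194.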
